A study of Mus musculus with 2 samples.

Results

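Brown fat burns fatty acids, and it draws many of them from lipoproteins in the blood. Lipoprotein lipase (LPL) is made by adipocytes, folded with the help of lipase maturation factor 1 (LMF1) and carried by the endothelial protein GPIHBP1 to the inner wall of capillaries, where it cuts the triglycerides of chylomicrons and very low density lipoproteins. Angiopoietin-like proteins restrain the enzyme, the VLDL receptor binds triglyceride-rich particles, CD36 helps the freed fatty acids across the cell membrane, and fatty acid-binding proteins (FABPs) carry them in the cytosol. The 10 genes described here were chosen by symbol: Lpl, Lmf1, Gpihbp1, Angptl4, Angptl8, Vldlr, Cd36, Fabp3, Fabp4 and Fabp5, out of 27179 genes in the count tables. All 10 were found in both tables.

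RNA sequencing compared interscapular brown adipose tissue (iBAT), a heat-producing fat depot, of untreated C57BL/6N mice aged 20 days that were wild-type or lacked Ucp1 (Ucp1-KO, Δ/Δ). Ucp1 encodes uncoupling protein 1, which lets brown fat mitochondria release energy as heat. Each genotype had 1 library, made from pooled tissue of 3 animals, so differences between animals cannot be seen and no test of genotype was possible. The series gives all animals as male and names no other allele or treatment.

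The libraries held 52950913 counts (wild-type) and 53216727 counts (Ucp1-KO). Ucp1 itself was at 12.7% of its wild-type normalised level in the Ucp1-KO library, from 366473 (wild-type) and 37853 (Ucp1-KO) counts. The lower level goes with the direction of the labels, but the transcript was not absent. The source of the remaining Ucp1 counts was not tested, so this value does not settle the genotype of each pooled animal. The sex-linked transcripts went against the stated sex. Ddx3y, Eif2s3y, Kdm5d and Uty, all Y-linked, had 0 counts each in the wild-type library, where the limit for a count of 0 is 6 counts, and 491 to 3446 in the Ucp1-KO library, while Xist, made from an inactive X chromosome, had 32380 and 16478 counts. The Ucp1-KO library thus held both Y-linked transcripts and Xist, and the wild-type library only Xist, so the pools cannot be read as all of 1 sex against all of the other. The sex makeup of the pools and genotype therefore differed together and cannot be told apart in any value below.

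Differences are given as the log2 ratio of Ucp1-KO over wild-type on normalised read counts, with 0.5 added to each, and with a 95% counting interval computed on read pairs. The interval covers counting error only. Of the 10 genes, 8 had a higher and 2 a lower normalised count in the Ucp1-KO library, and their median log2 ratio was 0.34. Among the 6395 genes whose normalised counts averaged 1000 or more, 3583 were higher and 2812 lower, with a median of 0.056. For the 15212 genes that averaged 10 or more the median was -0.0016, with 7592 higher and 7620 lower. Only Fabp3 was at least 2-fold higher, where 7.42% of the 15212 genes were, and only Fabp5 was at least 2-fold lower, where 9.55% were. All 10 members averaged over 1000, and among genes that abundant 2.63% were higher and 2.86% lower by 2-fold or more.

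Counting error is small at these levels, so an interval on one side of 0 is common. It lay above 0 for 7 members and below 0 for 2, and included 0 for Lmf1. Among genes with a mean of at least 10 the interval lay above 0 for 31.5% and below 0 for 30.5%, and among those with a mean of at least 1000 for 44.0% and 32.9%. Scaling by total counts, which lowers every log2 ratio by 0.31, changed the split of the members from 7 and 2 to 5 above and 5 below 0. Under it Cd36 was at -0.056 and Fabp4 at -0.15, in the opposite direction to the normalised values, and Gpihbp1 passed the 2-fold line, giving 2 members beyond it on the lower side. Total counts without the genes of mitochondrial DNA returned Cd36 to 0.24 and Fabp4 to 0.14.

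**Figure D1:**
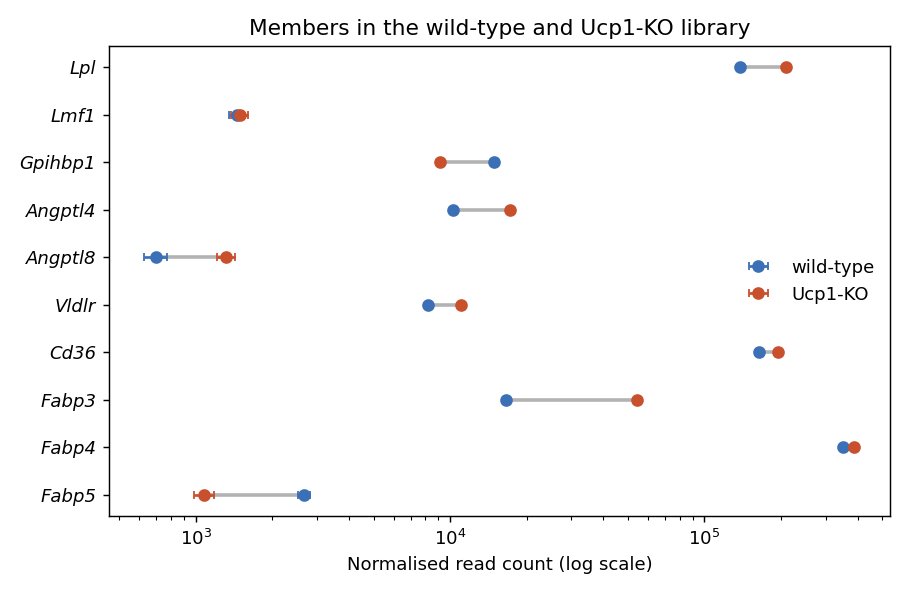
Normalised read counts of the 10 genes (horizontal log axis) in the wild-type (blue) and Ucp1-KO (orange) library, 1 library each, with 95% Poisson counting intervals on read pairs where they are wider than the point. Fabp3 shows the widest gap to the right (16541 to 54469) and Fabp5 the widest to the left (2663 to 1077).

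**Figure D2:**
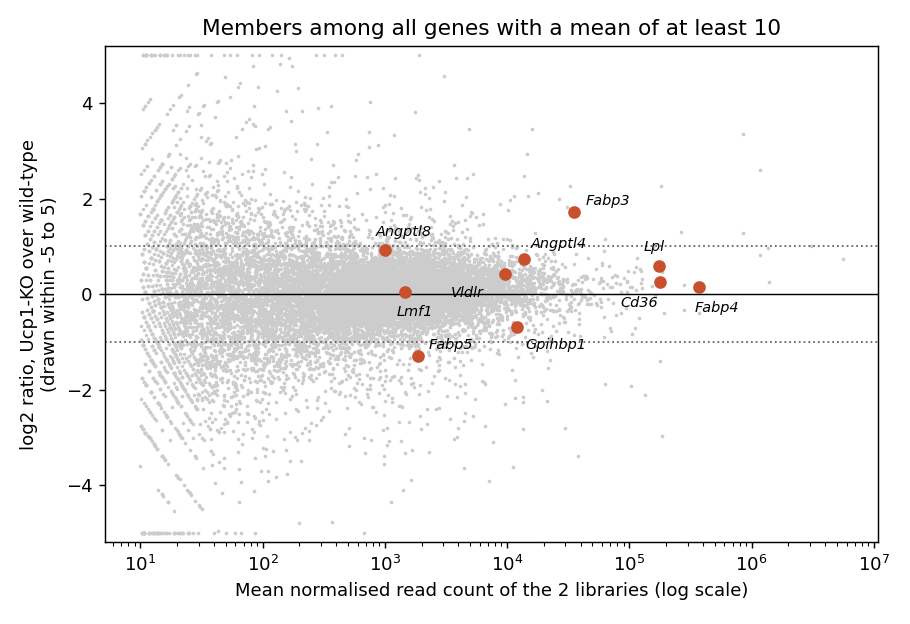
Log2 ratio of Ucp1-KO over wild-type (vertical axis) against the mean normalised read count of both libraries (horizontal log axis) for the 15212 genes with a mean of at least 10 (grey) and the 10 members (orange, named), with dotted lines at a 2-fold difference. Values beyond 5 on the log2 scale are drawn at the edge, and of the members only Fabp3 and Fabp5 lie outside the dotted lines.

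The genes span a wide range of levels. Levels of different genes were compared in TPM, computed from counts per kilobase of annotated exon over all genes matched to gene models. Fabp4 had the highest level of the 10, at 9235 TPM in wild-type and 7764 TPM in Ucp1-KO tissue. Cd36 (1702) and Lpl (1484) followed in wild-type tissue. In Ucp1-KO tissue Lpl was at 1688, Cd36 at 1530 and Fabp3 at 1017. Lmf1 had the lowest level in both, at 7.08 and 5.50.

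The length used for a gene matters for the order between them. All annotated exons of a gene together can be much longer than its canonical transcript, 5296 against 823 bases for Fabp3. Per kilobase of the canonical transcript, a choice made after the data were seen, Fabp4 was again first (17185 and 16182) and Lmf1 again last (49.7 and 43.2). With that length Fabp3 lay below Cd36 and Lpl in wild-type tissue (1345, against 3133 and 2252) and above both in Ucp1-KO tissue (3747, against 3153 and 2869). In Ucp1-KO tissue the order of Lpl, Cd36 and Fabp3 thus differed between the lengths, so none is given.

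Lpl (Entrez gene 16956, chromosome 8 from 69284603 to 69360100 of GRCm39, plus strand) encodes the enzyme itself. Wild-type tissue gave 153591 counts and Ucp1-KO tissue 187977, a normalised level 1.51-fold higher in Ucp1-KO (1.49 to 1.52) and a log2 ratio of 0.59 (0.58 to 0.60). Of 15 adipocyte markers, 10 had a lower log2 ratio than Lpl and 5 a higher one. Relative to the median of those markers Lpl was at 0.097, and with total counts at 0.28. Lpl thus stood higher in Ucp1-KO under each scaling, while the size depended on the reference.

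Lmf1 (Entrez gene 76483, chromosome 17 from 25798048 to 25888183, plus strand) encodes the endoplasmic reticulum protein that lipases need to fold. It had 1606 and 1341 counts, and its log2 ratio of 0.039 (-0.11 to 0.19) was not distinguishable from 0 at this depth. With total counts it was at -0.27, close to the shift of all genes. Relative to Lpl, a comparison that no scaling of the libraries can move, Lmf1 differed by -0.55 on the log2 scale (-0.70 to -0.40).

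Gpihbp1 (Entrez gene 68453, chromosome 15 from 75468474 to 75471331, plus strand) encodes the capillary protein that captures LPL below the endothelium and holds it in the lumen. Its counts were 16443 (wild-type) and 8259 (Ucp1-KO). Its normalised level was 1.62-fold lower in Ucp1-KO (1.56 to 1.68), a log2 ratio of -0.69 (-0.75 to -0.64), so that the enzyme and its anchor differed in opposite directions. For each 100 counts of Lpl wild-type tissue had 10.7 counts of Gpihbp1 and Ucp1-KO tissue 4.39, a difference of -1.28 on the log2 scale (-1.34 to -1.23).

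Transcripts of endothelial cells were lower along with Gpihbp1. Of 16 endothelial markers 15 were lower and 1 was higher, with a median log2 ratio of -0.75 and a range of -1.39 to 0.50, and none was at 0 counts. Their summed share of all counts was 0.323% (wild-type) and 0.166% (Ucp1-KO). Pecam1, an adhesion molecule of endothelial junctions, was at -0.47, Kdr, the main VEGF receptor, at -0.87 and Ptprb, an endothelial phosphatase, at -0.84. Gpihbp1 lay among them, above 9 of the 16 markers and below 7. Relative to their median, taken as fixed, it was at 0.054 (-0.00023 to 0.11). That interval includes 0 but leaves out the spread of the markers. Pecam1 and Cdh5, the latter named for this comparison, are among the 7. Relative to them, free of scaling, Gpihbp1 differed by -0.22 (-0.29 to -0.15) and -0.31 (-0.39 to -0.24) on the log2 scale. In bulk tissue fewer cells of a type and less RNA per cell cannot be told apart, and the part of endothelial content in the Gpihbp1 value was not tested.

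Both inhibitor genes were higher in the Ucp1-KO library, neither by 2-fold. Angptl4 (Entrez gene 57875, chromosome 17 from 33992724 to 34000804, minus strand), whose product is induced by fasting and inactivates LPL within adipose tissue, had 11432 and 15520 counts. Its normalised level was 1.67-fold higher (1.61 to 1.73), a log2 ratio of 0.74 (0.69 to 0.79). Angptl8 (Entrez gene 624219, chromosome 9 from 21746786 to 21748643, plus strand), whose product is induced by feeding and can form a complex with ANGPTL4, had 771 and 1188 counts. Its level was 1.90-fold higher (1.67 to 2.16), a log2 ratio of 0.92 (0.74 to 1.11).

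Relative to Lpl the inhibitors differed by 0.15 (0.098 to 0.20) for Angptl4 and 0.33 (0.15 to 0.52) for Angptl8, both less than their own log2 ratios. The difference between the inhibitors was 0.18 with an interval of -0.0087 to 0.37, which includes 0. Both stayed above 0 with total counts, at 0.43 and 0.62. Dock6 lies on the opposite strand across Angptl8 without sharing exons and had a log2 ratio of -0.93, in the other direction.

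Promoter sequences (250 bases before to 50 bases after the gene start, RefSeq, build GRCm38.p6) were matched by symbol for 5 of the 10 genes, Lmf1, Angptl8, Vldlr, Cd36 and Fabp3, and not for Lpl, Gpihbp1, Angptl4, Fabp4 and Fabp5. Those of Angptl8, Cd36 and Fabp3 are printed as an inhibitor, the membrane transporter and the gene with the largest difference, 5′ to 3′ on the strand of the gene. Both strands were searched for the nuclear receptor half-site AGGTCA, its direct repeat with 1 base between the copies, the cyclic AMP response element TGACGTCA, the E-box CACGTG, the TATA box TATAAA, the GC box GGGCGG, the CCAAT box CCAAT and the C/EBP-ATF composite TGATGCAAT, the last added after the Angptl8 sequence had been read. Capitals mark every match, and a match describes letters in this window, not a bound site.

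The Angptl8 promoter, chr9:21835260-21835559 of GRCm38.p6 on the plus strand, held the C/EBP-ATF composite at position -130 from the gene start, which 0.192% of 32851 promoters of the same length hold, and none of the other motifs.
Angptl8: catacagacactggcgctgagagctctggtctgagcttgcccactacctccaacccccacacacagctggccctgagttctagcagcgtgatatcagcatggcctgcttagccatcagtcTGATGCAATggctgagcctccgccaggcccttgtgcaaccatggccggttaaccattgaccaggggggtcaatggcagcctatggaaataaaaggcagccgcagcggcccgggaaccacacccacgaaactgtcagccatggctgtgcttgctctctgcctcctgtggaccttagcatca

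Vldlr (Entrez gene 22359, chromosome 19 from 27193862 to 27231631, plus strand) encodes a receptor that takes up triglyceride-rich lipoproteins and helps LPL act on them. It had 9098 and 9957 counts, a normalised level 1.35-fold higher in Ucp1-KO (1.29 to 1.40) and a log2 ratio of 0.43 (0.37 to 0.49). Relative to Lpl it differed by -0.16 on the log2 scale (-0.22 to -0.10). With total counts Vldlr was at 0.12, and relative to the adipocyte markers at -0.064, in the opposite direction.

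Cd36 (Entrez gene 12491, chromosome 5 from 17986432 to 18094067, minus strand) encodes the fatty acid translocase of adipocytes, capillary endothelium and macrophages. Its counts were 182003 (wild-type) and 175969 (Ucp1-KO). After normalisation Cd36 was 1.19-fold higher in Ucp1-KO (1.18 to 1.20), a log2 ratio of 0.25 (0.24 to 0.26), but -0.056 with total counts and -0.24 relative to the adipocyte markers, so that no direction can be given apart from a scaling. Against Lpl, which needs no scaling, Cd36 differed by -0.34 on the log2 scale (-0.36 to -0.32).

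The 1 Cd36 promoter window available was chr5:17835847-17836146 of GRCm38.p6 on the minus strand. Its place in the gene span given above, which is on GRCm39, was not checked, and other starts of Cd36 were not searched. Of the 6 promoters of these genes (2 of them for Vldlr) only this one had a nuclear receptor half-site. The half-site lies at position -228 on the reverse strand and is present in 16.3% of all promoters. The window also held the GC box at 2 places (35.7% of promoters hold one) and 1 CCAAT box (37.4%). No promoter of these genes held the direct repeat, which is rare in these windows (0.0396% of promoters).
Cd36: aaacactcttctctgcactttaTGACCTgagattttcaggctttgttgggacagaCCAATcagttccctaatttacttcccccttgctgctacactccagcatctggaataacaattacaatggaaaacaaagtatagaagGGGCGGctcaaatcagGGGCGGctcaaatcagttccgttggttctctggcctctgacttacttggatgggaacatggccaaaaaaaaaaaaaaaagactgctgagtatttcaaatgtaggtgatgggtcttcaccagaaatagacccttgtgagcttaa

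The 3 fatty acid-binding proteins included the members with the highest and the lowest log2 ratio. Fabp3 (Entrez gene 14077, chromosome 4 from 130202388 to 130209259, plus strand), the carrier of heart, oxidative muscle and brown fat, had 18351 counts in wild-type against 49096 in Ucp1-KO tissue. Its normalised level was 3.29-fold higher in Ucp1-KO (3.21 to 3.37), a log2 ratio of 1.72 (1.68 to 1.75). Among the 6395 genes with a mean of at least 1000 its log2 ratio ranked 49 from the top. It was 1.41 with total counts and 1.23 relative to the adipocyte markers.

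Fabp4 (Entrez gene 11770, chromosome 3 from 10268785 to 10273737, minus strand), the main carrier of adipocytes, had 387360 and 350385 counts. Its log2 ratio was 0.15 (0.15 to 0.16), a 1.11-fold higher level that turned to -0.15 with total counts and to -0.34 relative to the adipocyte markers. Fabp5 (Entrez gene 16592, chromosome 3 from 10077602 to 10081674, plus strand), a carrier of skin, endothelium, macrophages and, at lower level, adipocytes, had 2954 and 971 counts. Its normalised level was 2.47-fold lower in Ucp1-KO (2.23 to 2.74), a log2 ratio of -1.31 (-1.46 to -1.16), and its log2 ratio ranked 114 from the bottom of the 6395 genes. Fabp5 was lower under each scaling, between -0.56 relative to the endothelial markers and -1.80 relative to the adipocyte markers.

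Because these genes sit in one family, their counts can be set against each other within a library. Fabp3 made up 4.49% of the summed counts of the 3 in wild-type tissue (exact binomial interval 4.40% to 4.58%) against 12.3% in Ucp1-KO (12.1% to 12.4%). The share of Fabp4 was 94.8% and 87.5%, and that of Fabp5 0.723% and 0.242%. The ratio of Fabp3 to Fabp5 differed by 3.02 on the log2 scale (2.87 to 3.18), while the normalised sum of the 3 differed by 0.27 (0.26 to 0.28) and their raw sums were 408665 and 400452 counts. Per kilobase of canonical transcript the share of Fabp3 was 7.19% and 18.7%.

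**Figure D3:**
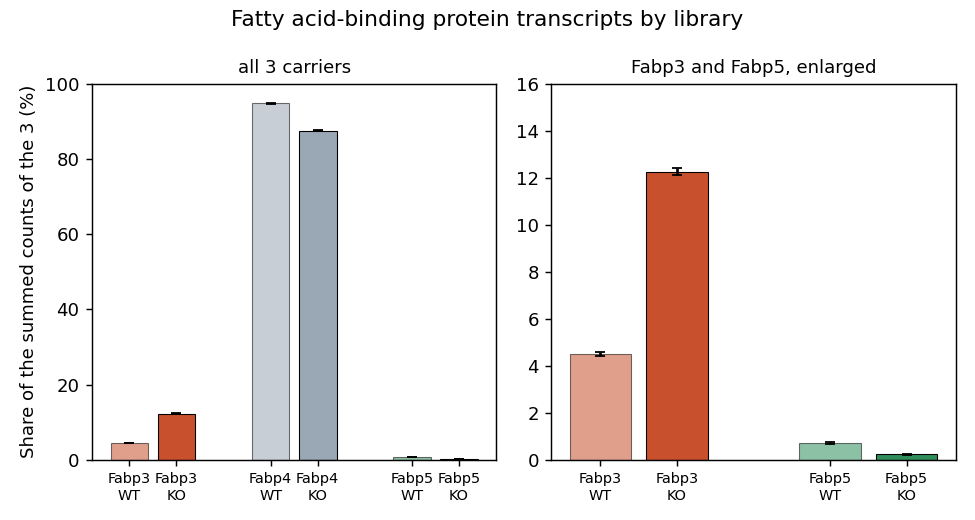
Share of Fabp3, Fabp4 and Fabp5 in the summed counts of the 3 genes (vertical axis, percent) in the wild-type (WT, pale) and Ucp1-KO (KO, full colour) library, 1 library each, with exact binomial 95% intervals on read pairs, and Fabp3 and Fabp5 enlarged on the right. Fabp3 goes from 4.49% to 12.3% and Fabp5 from 0.723% to 0.242%.

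Fabp3 is also a gene of muscle, and muscle transcripts differed strongly between the pools. Each of 20 skeletal muscle markers was lower in Ucp1-KO by 2-fold or more (median log2 ratio -2.74), none was at 0 counts, and their summed share of counts was 0.667% (wild-type) and 0.0791% (Ucp1-KO). Acta1, skeletal muscle actin, was at -3.39, Myh4, a fast myosin, at -2.80, while Atp2a1, the calcium pump of fast fibres, had 34222 and 6950 counts. Fabp3 differed in the opposite direction to all 20, and so did Lpl. The part of muscle RNA in the values of Fabp3, Lpl and the other members was not tested. The gene Zcchc17 lies on the opposite strand and shares 1960 annotated exon bases with Fabp3. It had 1340 and 1042 counts, fewer than Fabp3 in either library, and a log2 ratio of -0.063 (-0.23 to 0.10). Fabp4 shares 1188 exon bases with an opposite-strand long non-coding RNA. Whether counting used strand is not given in the sources used here, so reads in shared bases are uncertain.

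The Fabp3 promoter, chr4:130308488-130308787 of GRCm38.p6 on the plus strand, is shown since this gene had the largest difference. None of the motifs searched is in this window.
Fabp3: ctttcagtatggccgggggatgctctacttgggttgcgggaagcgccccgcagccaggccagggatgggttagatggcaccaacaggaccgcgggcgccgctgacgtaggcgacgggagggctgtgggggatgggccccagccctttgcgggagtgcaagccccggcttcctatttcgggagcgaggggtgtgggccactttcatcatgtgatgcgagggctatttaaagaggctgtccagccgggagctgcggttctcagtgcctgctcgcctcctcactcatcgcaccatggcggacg

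**Figure D4:**
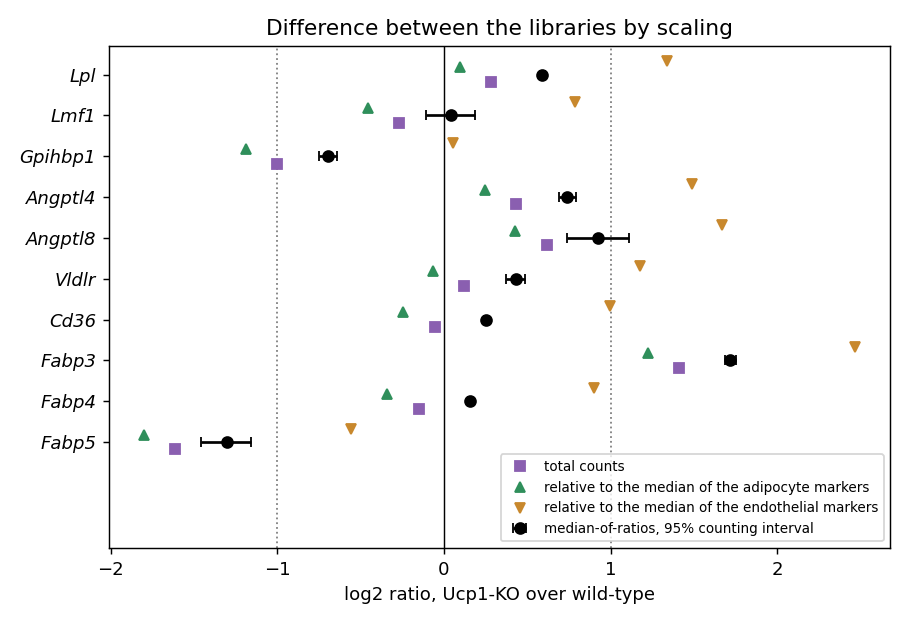
Log2 ratio of Ucp1-KO over wild-type (horizontal axis) for each member with median-of-ratios scaling and its 95% counting interval (black), with total counts (purple squares), and relative to the median log2 ratio of the adipocyte markers (green) or endothelial markers (yellow). Dotted lines mark a 2-fold difference. Lpl, Angptl4, Angptl8 and Fabp3 stay right and Fabp5 left of 0 under all 4, while Gpihbp1, Lmf1, Vldlr, Cd36 and Fabp4 lie on both sides.

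Further genes of lipase handling and of fatty acid transport were taken from lists. Over all genes with a mean of at least 10, 7.42% were higher and 9.55% lower by 2-fold or more, the shares to set beside each list below. Of 20 genes that act on lipases or lipoproteins 18 had a mean of at least 10, with 2 at least 2-fold higher, 2 at least 2-fold lower and a median log2 ratio of -0.069. Pcsk5, a proprotein convertase of the class that cuts LPL and ANGPTL4, had 684 and 2897 counts (log2 ratio 2.38, 2.21 to 2.56). Lipg, which encodes endothelial lipase, had 710 and 1269 (1.14, 0.95 to 1.33). Apoc3, an apolipoprotein that inhibits LPL, had 245 and 32 counts (-2.62, -3.49 to -1.88), and Sorl1, a sorting receptor for LPL, had 1136 and 250 (-1.88, -2.18 to -1.60).

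The most abundant of that list differed less. Apoe was at a log2 ratio of -0.20, Hspg2, the heparan sulfate proteoglycan perlecan, at -0.50 and Sdc4, a syndecan, at -0.15. Apoc2, named after its values were seen because its product is the cofactor of LPL, had 19 and 24 counts (0.62, -0.72 to 2.03), which cannot show a difference of moderate size. Of 8 genes for lipoprotein receptors and their regulators 7 had a mean of at least 10 and none reached 2-fold, with a median of -0.30. Lrp1, a receptor for lipoprotein remnants, was at -0.55, Mylip, a ligase that degrades LDL and VLDL receptors, at -0.55 and Scarb1, the HDL receptor, at 0.19.

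Of 24 genes of fatty acid transport and activation 22 had a mean of at least 10, with 1 gene past 2-fold in each direction, and the median was 0.16, or -0.15 with total counts. Slc27a2, a very long-chain acyl-CoA synthetase and transporter, was the one higher, with 3741 and 23261 counts (log2 ratio 2.94, 2.87 to 3.01). The one lower was Slc27a6, from 32 and 8 counts (-1.65, -3.74 to -0.068). Acsl1, the main adipocyte acyl-CoA synthetase, was at 0.26, Cav1, the caveolar protein, at 0.15 and Dbi, the acyl-CoA-binding protein, at -0.79. The values of Acsl1 and Cav1 are smaller than the 0.31 by which total counts lowers each log2 ratio.

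Regulators of these genes were examined as well. Of 19 such genes 1 lay past 2-fold in each direction, with a median of -0.21. The retinoid X receptor gene Rxrg was at 1.07 (0.94 to 1.21), and Srebf1, which drives lipogenic genes, at -1.14 (-1.23 to -1.05). Cebpa, an adipogenic transcription factor, was at -0.73, Nrp1, a VEGF co-receptor, at -0.15 and Epas1, a hypoxia-inducible factor, at -0.21. Pparg, the nuclear receptor that controls Lpl, Cd36 and Fabp4 in adipocytes, was named after its values were seen. It had 14981 and 14490 counts and a log2 ratio of 0.25 (0.20 to 0.30). Total counts lowers each log2 ratio by 0.31, more than this value, so no direction can be given apart from a scaling.

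Markers of the other cell types that make these transcripts were set beside them. Of the labelled tissue, all 15 adipocyte markers had counts in both libraries (0.698% and 0.838% of all counts, median log2 ratio 0.49, with 10 higher and 5 lower). They were not uniform: log2 ratios ran from -1.90 to 2.52, with 4 genes above and 3 below the 2-fold lines, so values relative to their median rest on a wide spread. Pnpla2, adipose triglyceride lipase, was at 0.57, Cidea, a lipid droplet protein of brown fat, at 0.49 and Adipoq at 0.84. Fabp3 lay above 12 of the 15, and Fabp5 above 1.

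Macrophage markers, which bear on Cd36, Fabp4 and Fabp5, had a median of 0.19 over 14 genes, 10 of them higher and 4 lower, with a range of -0.47 to 2.04, 5 at least 2-fold higher and none at least 2-fold lower, none at 0 counts, and made up 0.0176% and 0.0185% of counts. Their median was -0.12 with total counts. The most abundant were Lyz2 at 0.81, Mrc1 at 0.25 and Mertk at 0.083. The 5 past 2-fold, chosen after their values were seen, were Itgam (2.04), Trem2 (1.92), Fcgr1 (1.76), Ctss (1.33) and Cd68 (1.09). Of these, Trem2 rests on 10 and 32 counts and Fcgr1 on 28 and 78. The 4 lower were Cd163 (-0.47), C1qc (-0.23), Adgre1 (-0.21) and Csf1r (-0.0067), of which only Cd163 had a counting interval off 0. Fabp5 lay below all 14. Fabp5 also lay below 15 of the 16 endothelial markers. Fibroblast and preadipocyte markers had a median of -0.22 over 11 genes (Col3a1 -0.067, Col1a1 -0.12, Dcn -0.16) and 4 erythroid genes of -0.53 (Hba-a1 -0.47, Alas2 -0.55, Hba-a2 -0.52). The part of these cell types in the values of the members was not tested.

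**Figure D5:**
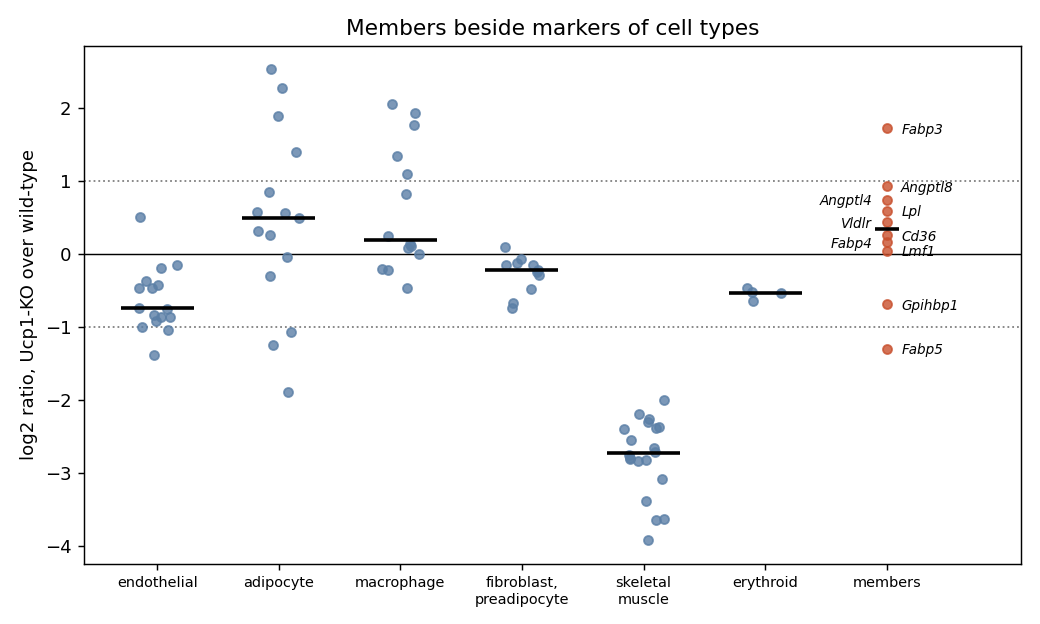
Log2 ratio of Ucp1-KO over wild-type (vertical axis) of each gene in 6 marker lists (blue points) and of the 10 members (orange, named), with black bars at each median and dotted lines at a 2-fold difference. Gpihbp1 (-0.69) lies within the span of the endothelial markers, and Fabp3 (1.72) above all 20 muscle markers.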

How the data were processed

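Poly-A RNA of iBAT was sequenced in 2 directional libraries, wild-type and Ucp1-KO. Per the labels and the study's methods, the authors used Trim Galore, HISAT2 (mm39) and featureCounts, and deposited raw counts per gene. Annotation, strand and multi-mapping settings are not given in the sources used here, so overlapping and near-identical genes are uncertain.

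Counts were divided by DESeq2 1.42.0 median-of-ratios size factors (R 4.3.3), 1.11 for wild-type and 0.901 for Ucp1-KO. Among genes with 1 to 10 counts, 70.7% and 73.4% were even, against 49.9% and 50.2% at 100 to 1000 counts, so intervals used read pairs (counts divided by 2): Clopper-Pearson for ratios and shares, Poisson for counts, normal for differences of log2 ratios. A count of 0 allows 3 read pairs, or 6 counts. Lacking molecular identifiers, reads need not be independent molecules. Genes without a symbol (1319) held 0.156% and 0.121% of counts. With 1 library per genotype no p-value was computed. Positions and lengths came from GENCODE M39 (97.1% of the 15212 genes matched by symbol, members all matched). The functions for ratios and intervals were tested on simulated data.

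Members and lists were chosen with earlier results of these data known. Text named all members, the 3 most abundant genes of each list and, in pathway lists, up to 5 past 2-fold with an interval off 0. TMM factors (edgeR 4.0.16), total counts with and without mitochondrial genes, upper quartile, pseudocounts, filters and size rules were the alternatives. Of the listed genes 1 is not analysed here, and single values of some others are not reported here.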

Additional observations from a re-analysis of the deposited data

How the results depend on the processing

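No paired analysis was possible because there is a single library per genotype, so none could be left out either. The number of members at least 2-fold higher was 1 under each scaling by library, pseudocount, filter and size rule run. With total counts the median of the members was 0.034, 2 were at least 2-fold lower and 5 had a counting interval below 0. A size rule of 1.5 on the log2 scale left 0 lower. The members' median was -0.15 relative to the adipocyte markers and 1.09 relative to the endothelial markers. The sign changed with total counts for Cd36 (-0.056), Fabp4 (-0.15), Lmf1 (-0.27), the macrophage median (-0.12) and the fatty acid transport median (-0.15), relative to the adipocyte markers for Vldlr (-0.064), Cd36 (-0.24), Fabp4 (-0.34) and Lmf1 (-0.45), and relative to the endothelial markers for Gpihbp1 (0.054, with an interval of -0.00023 to 0.11 that includes 0). These shifts follow from the scaling itself.

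Of 80 values for single members 45 stayed within the counting interval. For each of the 10 members these include an interval on counts as deposited, which reuses the main estimate and could not leave it. They also include a pseudocount of 5, which hardly moves a ratio at these counts. Outside the counting interval, 6 values changed sign for members whose own interval excluded 0. The other 29 include the 2 sign changes of Lmf1, whose interval included 0. Without a filter, 1 lipoprotein receptor gene and 2 of the FABP relatives were at least 2-fold higher in place of 0. With total counts the higher genes went from 2 to 1 in lipase handling and from 1 to 0 among regulators, and the lower ones from 1 to 5 among regulators and from 1 to 3 in fatty acid transport, where a minimum mean of 50 left 0. Depth limits Lmf1, Apoc2 and Slc27a6.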

Other observations

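Relatives of the FABPs and their retinoid-binding cousins were measured too. Of 11 such genes 5 had a mean normalised count of at least 10, and 3 of these were at least 2-fold lower and none at least 2-fold higher in the Ucp1-KO library. Over all genes with that mean 9.55% were lower and 7.42% higher by 2-fold or more. The counting interval lay below 0 for 2 of the 5, as it did for 30.5% of all genes with that mean. Rbp4, which carries retinol in blood and is secreted by adipocytes, had 2411 counts (wild-type) and 383 counts (Ucp1-KO), with a log2 ratio of -2.35 (-2.58 to -2.13). Pmp2, named after its values were seen, had 16 and 6 counts (-1.06, -3.66 to 0.94), and Fabp12 32 and 37 (0.50, -0.54 to 1.57). The intestinal and liver genes Fabp1, Fabp2 and Fabp6 were listed at 0 in both libraries. Fabp5, Pmp2, Fabp9, Fabp4 and Fabp12 lie next to each other on chromosome 3 between 10077602 and 10366433 of GRCm39 (Fabp9 had 6 and 12 counts).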
